A study of Rattus norvegicus with 32 samples.

Results

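The comparison described here was that of iron-sufficient rats with prenatal choline supplementation (ISch) and iron-sufficient rats without supplementation (IS) in sequencing batch II. Its members were the 8 of the 32 RNA-seq libraries that the labels put in batch II with the diets ISch and IS, 4 in each group, and all 32883 entries of their table of read counts were examined. All 8 rats were female Sprague-Dawley rats killed at 65 days of age, and the tissue was hippocampus. Per the study's methods, extra choline was added to the diet of the pregnant dam, for part of gestation, and not to that of the adult rat. The 4 ISch rats were thus the grown offspring of supplemented dams and the 4 IS rats those of unsupplemented dams. The unsupplemented dams ate a diet of standard choline content, so the IS group was not without choline. No rat of either group was made iron-deficient. The labels give no litter. The study's methods state that each experiment took a single male per litter, but they describe male offspring only. Whether the females of a group shared a dam was therefore not known, and the p-values below measure only the spread between these samples. The other 8 libraries of batch II came from female rats of iron-deficient dams without added choline (ID) or with it (IDch). The 16 libraries of batch I came from male rats in the same 4 diet groups. Per the study's methods, the iron-deficient diet ended in the neonatal period, and pups were studied once brain iron had been restored. Rats called iron-deficient below were therefore formerly iron-deficient. Batch I held only males and batch II only females, so sex and sequencing batch cannot be told apart.

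Choline is a nutrient that cells use for phosphatidylcholine, the main phospholipid of membranes, for the neurotransmitter acetylcholine and, once oxidized to betaine, as a donor of methyl groups for methionine synthesis. The hippocampus is the brain structure needed for new episodic and spatial memories, and its dentate gyrus is built of granule cells whose axons, the mossy fibres, release glutamate together with peptides such as dynorphin. Immediate early genes are those that neurons transcribe within minutes of firing, and several of them encode transcription factors such as Egr1 and Egr2.

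Totals were 19980501 to 26057663 counts in the IS libraries (median 23177330) and 18439999 to 20341312 in the ISch libraries (median 19667170.5), and 17751 to 18281 entries had at least 1 count. Levels are given as CPM, counts scaled to a common library total after trimmed-mean normalization, and 3 counts, the limit that a count of 0 allows, came to 0.119 to 0.167 CPM in these 8 libraries, for counting error only. All 8 libraries had 0 counts of 3 Y-linked genes, as female labels would have it. The library labelled ID replicate 2, used here only beside the main comparison, had 766 counts of them (39.7 CPM, against 205 to 250 CPM in the males), so comparisons with the ID group are also given without it. On a multidimensional scaling of the 8 libraries the first axis (27.3% of the variance) separated ISch from IS, and ISch replicate 1 stood apart on the second (-1.061, against -0.25 to 0.54 for the other 7).

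Many hippocampal genes differed between ISch and IS, most of them by little. Of 14466 genes tested with edgeR's quasi-likelihood test, 1488 (10.3%) met the criterion of the study's methods, an absolute log2 fold change above 0.2 with an unadjusted p under 0.05. These were 743 (5.14%) higher and 745 (5.15%) lower in ISch. After Benjamini-Hochberg adjustment 368 genes (2.54%) had an adjusted p under 0.05, 219 of them (1.51%) higher and 149 (1.03%) lower. The median absolute log2 fold change of these 368 was 0.44, and only 65 exceeded 1, with 39 higher and 26 lower. The values of ISch and IS did not overlap in 1472 genes (10.2%), which included 359 of the 368. The median log2 fold change over all genes tested was -0.00374, which the scaling of the libraries sets near 0. The number with an adjusted p under 0.05 depended on single libraries: it was 796 without ISch replicate 1, but 171, 103, 199 and 114 without IS replicates 1, 2, 3 and 4, and 168 and 119 without ISch replicates 2 and 4. The plot of all genes by fold change and p shows how few of them exceed 1.

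Genes were singled out where their groups did not overlap and the adjusted p was under 0.05, taking the 12 higher and the 12 lower symbols of largest fold change. The 12 higher were Brms1, Sncg, Otop3, Ephx2, Pcdhga1, Dsp, Dio1, Pld5, Ptges, Tfap2c, Plac9 and Smoc2. The 12 lower were RT1-Bb, Ccn1, Il1rl2, Slc9b1, Lrrc31, Aox1, Nqo2, Cdhr3, Tacr2, Bcl2a1, Jhy and Rgs22. Of the 24, 9 kept an adjusted p under 0.05 under all 16 alternatives tried, namely Brms1, Sncg, Otop3, Ephx2, Pcdhga1, Dsp and Pld5 on the higher side and Nqo2 and Aox1 on the lower side. RT1-Bb lost it only when the replicate number was a block (adjusted p = 0.0573), and Plac9 under the block and in a fit of all 4 female groups (0.0763 at most). The other 13 lost it when a single library was left out, IS replicate 2 for all 13 and further libraries for each.

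Dsp, which encodes desmoplakin, a linker of desmosomes to intermediate filaments and in the hippocampus a marker of dentate granule cells, had 2.28, 2.07, 1.7 and 1.65 CPM in IS replicates 1 to 4 and 13.1, 12.2, 12.3 and 18.6 CPM in the ISch replicates. Every ISch library lay far above every IS library. The log2 fold change was 2.87 ± 0.17 (SE, n = 4 each; edgeR, adjusted p = 2.73e-05), the smallest adjusted p of the 24. An exact 2-sided permutation test of the same 8 values gave p = 0.029, the smallest that 4 against 4 allows, as it does for every gene whose groups do not overlap. Dsp was singled out for groups that do not overlap, so this p was fixed by the choice and adds nothing to the model's p.

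Sncg, encoding gamma-synuclein, a small presynaptic and axonal protein, had 3.58, 5.29, 5.76 and 3.52 CPM in IS and 49.1, 84.4, 37.9 and 70.4 CPM in ISch. The ISch rats differed among themselves by more than the IS rats did, but none came near the IS range, and the log2 fold change was 3.72 ± 0.27 (adjusted p = 5.61e-05). Ephx2 encodes soluble epoxide hydrolase, which breaks down signalling lipids made from arachidonic acid. It had 0.985, 1.43, 1.25 and 1.04 CPM in IS and 9.61, 17.2, 8.82 and 15.2 CPM in ISch. Again no ISch library came near the IS range, and the log2 fold change was 3.41 ± 0.25 (adjusted p = 5.88e-05).

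Brms1, encoding a subunit of histone deacetylase corepressor complexes, had 0.311, 0.238, 0.268 and 0.0868 CPM in IS and 9.11, 4.34, 5.61 and 8.54 CPM in ISch, a log2 fold change of 4.91 ± 0.35 (adjusted p = 5.61e-05). Its IS levels were those of a few counts, so this ratio is imprecise. Otop3, a proton channel of the otopetrin family, rose from 0.492 to 0.674 CPM in IS to 5.21 to 9.41 CPM in ISch (log2 fold change 3.62 ± 0.23, adjusted p = 3.73e-05). Pcdhga1, a clustered protocadherin of the gamma cluster, went from 0.518 to 1.43 CPM to 4.84 to 7.07 CPM (2.78 ± 0.26, adjusted p = 0.000416). Pld5, a member of the phospholipase D family without the catalytic residues, had 1.55 to 2.58 CPM in IS and 6.72 to 10.5 CPM in ISch (2.04 ± 0.19, adjusted p = 0.000417). In each of these genes the lowest ISch value exceeded the highest IS value. Dio1, the deiodinase that activates thyroxine, Ptges, a synthase of prostaglandin E2, and the transcription factor gene Tfap2c had log2 fold changes of 2.69, 1.94 and 1.88 at levels of 2.84 CPM or less.

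Nqo2 encodes a quinone reductase. It had 7.05, 9.7, 8.13 and 7.69 CPM in IS and 2.87, 3.51, 2.12 and 2.17 CPM in ISch, and fell by 1.61 on the log2 scale (SE 0.17, adjusted p = 0.0011). Aox1, aldehyde oxidase, had 14, 13.4, 12.3 and 11.9 CPM in IS and 6.74, 2.56, 1.69 and 2.58 CPM in ISch. The first ISch rat lay between the IS rats and the other 3 ISch rats, and Aox1 fell by 1.92 (SE 0.31, adjusted p = 0.0153). Ccn1, a secreted matricellular protein that is also induced as an early gene, had 3.94, 7.15, 11.7 and 5.04 CPM in IS and 0.503, 0.668, 3.16 and 0.606 CPM in ISch (-2.51 ± 0.53, adjusted p = 0.0337). IS replicate 1 and ISch replicate 3 were close for Ccn1, and its call was lost without IS replicate 2, 3 or 4 or ISch replicate 2 or 4 (adjusted p up to 0.103). Lrrc31 had 2.9 to 6.25 CPM in IS and 0.303 to 1.39 CPM in ISch (-2.02 ± 0.39, adjusted p = 0.024), lost without IS replicate 2, 3 or 4 (0.118 at most). RT1-Bb, a rat class II histocompatibility beta chain, was at 0.868 to 1.55 CPM in IS and 0.101 to 0.272 CPM in ISch (-2.57 ± 0.36, adjusted p = 0.00705). Reads of such histocompatibility genes can be shared between near-identical copies, so the value for RT1-Bb is uncertain.

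**Figure D1:**
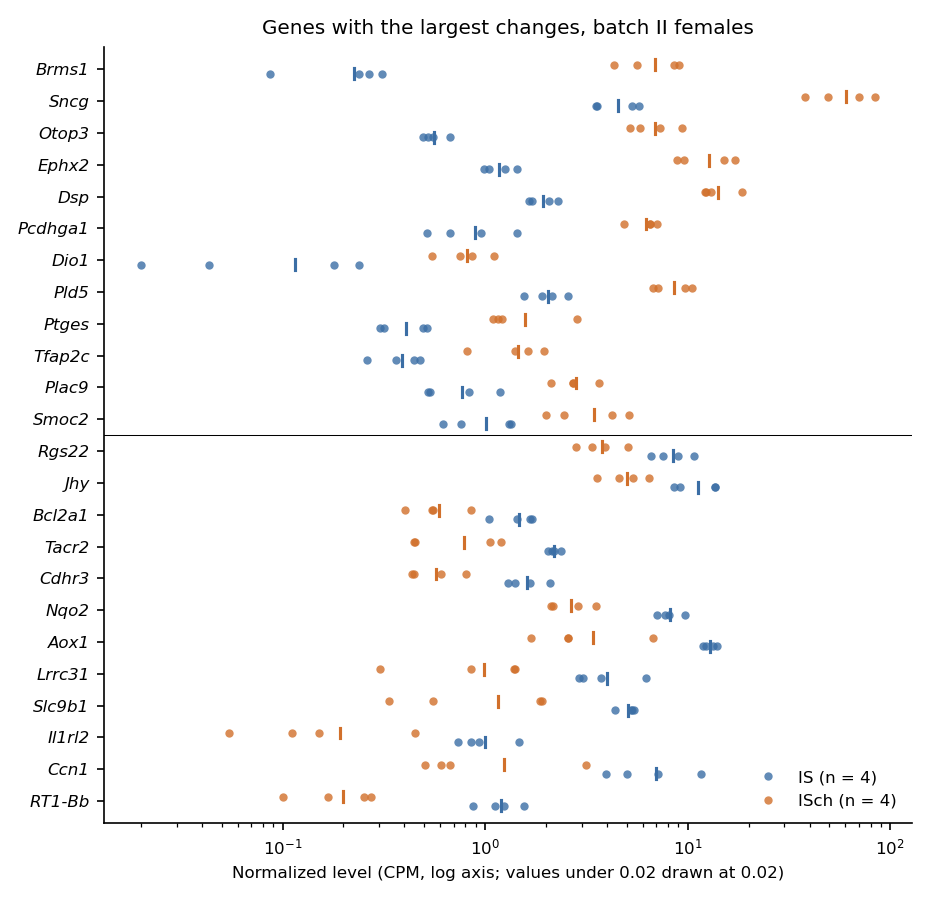
Level (x axis, CPM on a log scale) of the 12 higher and 12 lower genes with the largest changes (y axis), in each of the 4 IS and 4 ISch libraries of batch II, with 1 point per library and a vertical bar at each group's mean. Groups do not overlap in any of the 24: Dsp, for one, runs from 1.65 to 2.28 CPM in IS and from 12.2 to 18.6 CPM in ISch.

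Dentate granule cell genes were higher as a group. Of 8 tested markers 7 met the criterion as higher in ISch (87.5%, against 5.14% of all genes) and none as lower. Higher with an adjusted p under 0.05 were 6 of the 8, against 1.51% of all genes. The median log2 fold change of the 8 was 0.43. C1ql2, a secreted C1q-family protein of mossy fibre synapses, had 72.8, 70.3, 80.5 and 82.5 CPM in IS and 111, 112, 94.1 and 119 CPM in ISch (log2 fold change 0.51 ± 0.08, adjusted p = 0.0103). Stxbp6, an inhibitor of SNARE assembly, had 40.6, 38.2, 37.7 and 40.2 CPM in IS and 50.9, 59.7, 48.1 and 57.1 CPM in ISch (0.46 ± 0.07, adjusted p = 0.0103). Both were higher in every ISch library than in any IS library and kept their calls under all alternatives, as Dsp did. Prox1, the homeobox factor that specifies granule cells, had a log2 fold change of 0.39 ± 0.07 (adjusted p = 0.0227), Plekha2 of 0.51 ± 0.10 (0.026) and Calb1, the calcium buffer calbindin, of 0.34 ± 0.08 (0.049), while C1ql3 met the criterion only (0.27 ± 0.09, adjusted p = 0.165). Glis3 was the tested marker that did not, and Tdo2 and Lct were too low to test. The summed level of all 10 listed markers was 417.5 to 475.9 CPM in IS and 568 to 650.6 CPM in ISch. Over the alternatives 6 to 7 markers met the criterion and 3 to 6 had an adjusted p under 0.05.

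The summed levels of markers of the other hippocampal fields are given beside these. CA1 markers summed to 1042 to 1391 CPM in IS and 1041 to 1493 CPM in ISch. Of 8 CA2 and CA3 markers 1 met the criterion as lower (Grik4, -0.23 ± 0.09; 12.5%, against 5.15% of all genes), with sums of 481.4 to 556.7 and 445.6 to 527.1 CPM. These sums overlapped between groups, whereas the dentate sums did not. In RNA from whole tissue, more granule cells in the dissected piece and more RNA of these genes per granule cell cannot be told apart. The dentate sum moved with the calls for Pdyn, Gabrd, Gabra4 and the other granule cell genes below, and its part in them was not tested.

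Of the neuropeptide genes Pdyn had the smallest adjusted p. It encodes prodynorphin, whose opioid peptides are stored in mossy fibre terminals. Its levels were 48.9, 61.5, 73.2 and 72.1 CPM in IS (63.9 ± 11.3, SD, n = 4) and 229, 163, 164 and 162 CPM in ISch (180 ± 33.1, SD, n = 4). The other 3 ISch rats were nearly equal below ISch replicate 1, and no ISch value came near the IS range. The log2 fold change was 1.49 ± 0.14 (adjusted p = 0.000416), and it passed under all 16 alternatives (adjusted p at most 0.0141). Of 24 neuropeptide genes tested, 4 met the criterion as higher (16.7%, against 5.14% of all genes) and 1 as lower (4.17%, against 5.15%), with 3 to 6 higher when single libraries were left out. In edgeR 1 of them, Pdyn, had an adjusted p under 0.05, and in DESeq2 3 did. The other higher ones were Nmb (0.64, adjusted p = 0.0968), Scg2 (0.23, 0.124) and Adcyap1 (0.37, 0.136), and the lower one was Pomc (-4.98 ± 1.63, adjusted p = 0.156). For Pomc the difference lay in IS replicate 3, at 122.7 CPM, where the other 7 libraries had 0.599 to 2.65 CPM.

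Activity-induced genes were also higher in ISch. Of 41 tested, 19 met the criterion as higher (46.3%, against 5.14% of all genes) and 1, Ccn1, as lower (2.44%, against 5.15%). An adjusted p under 0.05 was found for 6 higher and 1 lower, against 1.51% and 1.03% of all genes. The median log2 fold change was 0.22. The summed level of the 42 genes of the list was 1556 to 1669 CPM in IS and 1757 to 2026 CPM in ISch. Egr2, a zinc-finger transcription factor, had 4.09, 3.34, 3.35 and 3.56 CPM in IS and 10.2, 8.4, 8.27 and 9.05 CPM in ISch. Its 4 ISch values were tightly grouped well above the IS level (log2 fold change 1.33 ± 0.12, adjusted p = 0.000324, at most 0.00589 under the alternatives). Egr1, which binds the same sites, had 133, 141, 130 and 119 CPM in IS and 162, 196, 171 and 190 CPM in ISch (0.46 ± 0.07, adjusted p = 0.0114). Bdnf, the neurotrophin that sustains synaptic plasticity, had 34.5, 37.5, 37.8 and 38.6 CPM in IS and 55.4, 55.4, 54.6 and 67.3 CPM in ISch (0.65 ± 0.07, adjusted p = 0.0015). Egr1 and Bdnf were higher in each ISch rat than in any IS rat and passed under all 16 alternatives, with Bdnf standing highest in ISch replicate 4.

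The orphan nuclear receptor genes Nr4a1 and Nr4a2 had log2 fold changes of 0.44 ± 0.10 (adjusted p = 0.0405) and 0.50 ± 0.11 (0.04), and Per1, at once an early gene and a clock gene, of 0.44 ± 0.08 (0.024). The calls of Nr4a2 and Per1 were lost when single libraries were left out (adjusted p up to 0.117 and 0.0805), among them IS replicates 1, 2 and 3 and ISch replicate 4 for each. Egr4 (0.61, adjusted p = 0.108), Ier5 (0.45, 0.115), Arc (0.41, 0.174), Gadd45b (0.39, 0.0821), Junb (0.37, 0.12) and Egr3 (0.25, 0.0668) met the criterion only. Fos, the best known of the early genes, did not meet it, with 9.28, 11.5, 24.3 and 11.1 CPM in IS and 13.9, 11.9, 14.6 and 14.9 CPM in ISch. IS replicate 3 lay above all other libraries for Fos, and the difference of -0.03 ± 0.26 became 0.38 without it. Over the alternatives 15 to 19 early genes met the criterion as higher, and 3 to 12 had an adjusted p under 0.05.

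**Figure D2:**
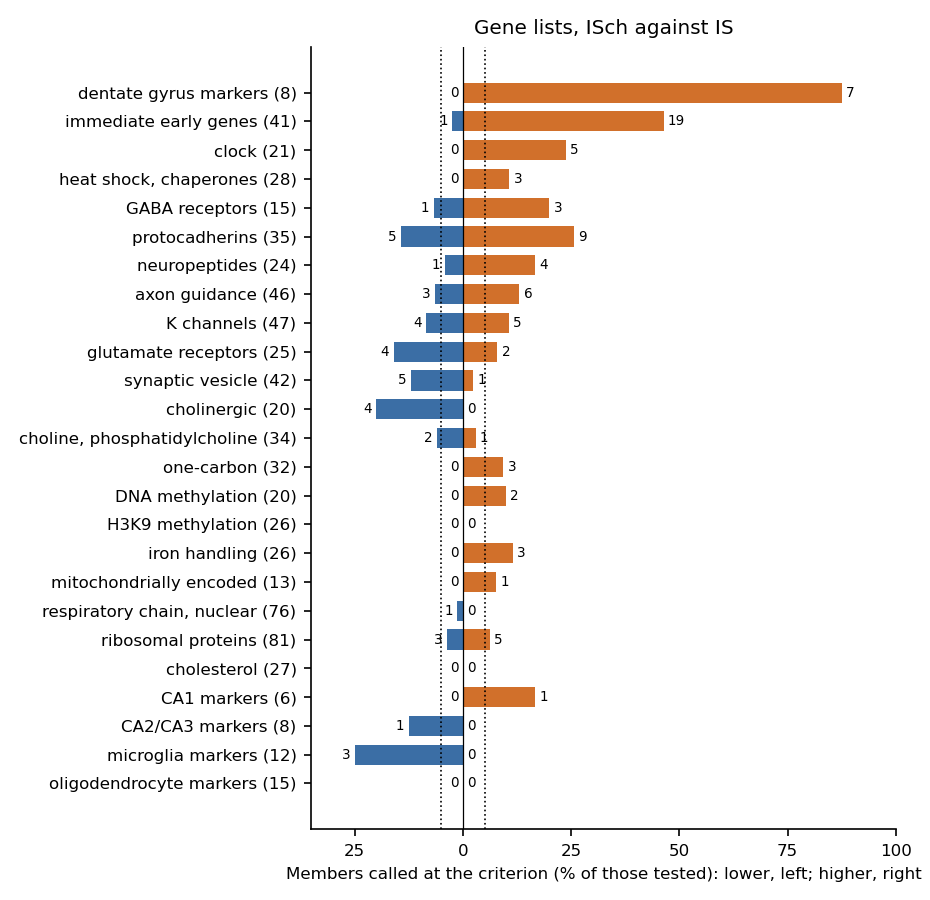
Share of each gene list drawn (y axis, number tested in brackets) that met the criterion in ISch against IS (x axis, % of members tested), lower genes to the left of 0 and higher genes to the right, with the number of genes at each bar's end and dotted lines at the shares over all genes tested (5.14% higher and 5.15% lower). Of the lists drawn, the dentate gyrus markers (7 of 8 higher) and the immediate early genes (19 of 41 higher) reach furthest to the right. Some lists are not drawn, among them blood genes (42.9% higher) and markers of meninges and fibroblasts (30% higher).

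Many activity-induced promoters carry a cyclic AMP response element (CRE), TGACGTCA, its half-site TGACG or CGTCA, or a CArG box, the site of serum response factor. The 250 bases before the start of transcription (RefSeq, GRCr8, given 5′ to 3′ on the gene's strand) are shown for 2 early genes that rose and for Pdyn, the gene of the dynorphin precursor, with half-sites and CArG boxes in capitals. Egr2 lies at chr20:21054442-21054691 (minus strand), Nr4a1 at chr7:134259888-134260137 (plus strand) and Pdyn at chr3:137366504-137366753 (minus strand).
Egr2: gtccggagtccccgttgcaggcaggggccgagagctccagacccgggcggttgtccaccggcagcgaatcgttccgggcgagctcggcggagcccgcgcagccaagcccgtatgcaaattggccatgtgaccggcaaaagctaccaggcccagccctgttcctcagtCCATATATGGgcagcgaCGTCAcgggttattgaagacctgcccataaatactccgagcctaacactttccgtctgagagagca
Nr4a1: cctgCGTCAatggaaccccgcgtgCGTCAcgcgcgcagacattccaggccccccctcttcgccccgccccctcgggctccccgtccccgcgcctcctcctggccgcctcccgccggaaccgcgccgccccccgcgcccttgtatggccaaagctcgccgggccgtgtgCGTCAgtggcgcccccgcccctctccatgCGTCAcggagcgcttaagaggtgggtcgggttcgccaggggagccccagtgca
Pdyn: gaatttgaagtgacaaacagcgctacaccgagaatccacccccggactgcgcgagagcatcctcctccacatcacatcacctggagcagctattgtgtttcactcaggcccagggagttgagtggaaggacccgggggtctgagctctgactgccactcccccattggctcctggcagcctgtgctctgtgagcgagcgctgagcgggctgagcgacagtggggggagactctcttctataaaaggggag

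This window of Egr2 held 1 half-site and 1 CArG box, that of Nr4a1 held 4 half-sites and no CArG box, and that of Pdyn held neither. Searching both strands, at least 1 half-site was present in 28.3% of the 10444 tested genes with a promoter sequence, in 62.5% of the 32 early genes, in 61.5% of the 13 early genes that met the criterion as higher and in 63.2% of the 19 that did not. The full CRE, which contains both half-sites, was present in 2.93% of tested genes, in 7.69% of the 13 and in 36.8% of the 19. Among the genes with an adjusted p under 0.05, half-sites were present in 27.7% of 155 higher and 22.1% of 104 lower genes. A CArG box was present in 1.24% of tested genes, in 9.38% of the 32 early genes, in 15.4% of the 13 and in 5.26% of the 19. In these shares a gene counted if any of its promoters held the motif. Counted per promoter instead, 18.2% of all 33469 promoters of this length held a half-site, 1.59% the full CRE and 1.5% a CArG box. These shares were not tested against each other.

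Receptor and transmitter-release genes gave smaller and mixed differences. Of 15 GABA-A and related receptor subunits 3 met the criterion as higher (20%, against 5.14% of all genes) and 1 as lower (6.67%, against 5.15%). The 3 higher ones had an adjusted p under 0.05, where 1.51% of all genes were higher. Gabrd encodes the delta subunit of extrasynaptic receptors that granule cells use for tonic inhibition, and had 27.7, 28.1, 29.8 and 29.5 CPM in IS and 33.8, 40.7, 34.6 and 39.5 CPM in ISch (0.37 ± 0.07, adjusted p = 0.024). Gabra4, its usual alpha partner, had 158 to 171 CPM in IS and 181 to 200 CPM in ISch (0.23 ± 0.04, adjusted p = 0.024), and Gabrr2 2.14 to 2.82 and 3.62 to 7.48 CPM (1.15 ± 0.23, adjusted p = 0.0276). None of the 3 overlapped between groups, but the calls of all 3 were lost without IS replicate 1, 2 or 4 or ISch replicate 4 (adjusted p at most 0.0945). Gabra5 was the lower one (-0.25, adjusted p = 0.12), and 3 subunits were lower without ISch replicate 1.

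Of 25 glutamate receptor genes 2 met the criterion as higher (8%, against 5.14% of all genes) and 4 as lower (16%, against 5.15%). These numbers were 4 and 1 without IS replicate 2, and 1 was higher without ISch replicate 3. Grm2, a presynaptic metabotropic receptor of mossy fibres, was the one with an adjusted p under 0.05 in edgeR, against 3 in DESeq2 (54.4 ± 5.7 CPM in IS and 73.6 ± 7.25 CPM in ISch, SD, n = 4 each; log2 fold change 0.43 ± 0.09, adjusted p = 0.0271). Of 42 synaptic vesicle and active zone genes 1 met the criterion as higher (2.38%, against 5.14% of all genes) and 5 as lower (11.9%, against 5.15%). The number lower was 10 without ISch replicate 1 but 3 without ISch replicate 3. Rims1, an active zone scaffold that primes vesicles, had 278, 278, 259 and 262 CPM in IS and 221, 207, 233 and 212 CPM in ISch. The lowest IS rat was above the highest ISch rat, and Rims1 fell by 0.30 (SE 0.05, adjusted p = 0.0103, and 0.0795 at most, in a fit of all 4 female groups or with the replicate block). Stx1a, the syntaxin of the fusion machinery, had 100.5 ± 2.97 CPM in IS and 85.1 ± 4.24 CPM in ISch (-0.24 ± 0.05, adjusted p = 0.024), and its call was lost without any 1 IS library or without ISch replicate 2 or 4 (adjusted p at most 0.0899). Sort1, a sorting receptor for pro-BDNF, fell by 0.28 (SE 0.05, adjusted p = 0.0187). The Sort1 and Grm2 calls were also lost without IS replicate 1, 2 or 4 or ISch replicate 2 or 4.

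Clustered protocadherins, adhesion proteins that give neurons their surface identity, went both ways. Of 35 tested, 9 met the criterion as higher (25.7%, against 5.14% of all genes) and 5 as lower (14.3%, against 5.15%). An adjusted p under 0.05 was found for 4 higher and 1 lower, against 1.51% and 1.03% of all genes. Without ISch replicate 1 the number lower was 8. Besides Pcdhga1, those with an adjusted p under 0.05 were Pcdhb19 (0.51 ± 0.09, adjusted p = 0.0164), Pcdhgb7 (0.43, 0.04) and Pcdhgb8 (0.30, 0.0484) on the higher side and Pcdhb5 (-0.55 ± 0.11, 0.026) on the lower side. The call of Pcdhb5 was lost without IS replicate 1, 2 or 3 or ISch replicate 2, 3 or 4, with the replicate block and in a fit of all 4 female groups (adjusted p at most 0.247), and that of Pcdhb19 without IS replicate 2 or 4 and with the block (0.0838 at most). The number higher with an adjusted p under 0.05 was 1 to 3 when single libraries were left out. Members of a cluster share long stretches of sequence, so reads may be divided between them and these values are uncertain. Of 21 clock genes 5 met the criterion as higher (23.8%, against 5.14% of all genes, and 3 genes without IS replicate 3) and none as lower. They were Per1, Per3 (0.30, adjusted p = 0.026), Nfil3 (0.47, 0.0427), Hlf (0.24, 0.246) and Rorb (0.32, 0.258). Per3 and Nfil3 each lost their calls without IS replicate 1, 2 or 4 and without ISch replicate 2, 3 or 4 (adjusted p at most 0.122).

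The genes that handle choline itself were counted next. Of 34 genes of choline transport and phosphatidylcholine metabolism 1 met the criterion as higher (Pnpla7, 0.28, adjusted p = 0.143) and 2 as lower (Etnk2, -0.45, 0.0995, and Enpp6, -0.28, 0.282), which is 2.94% and 5.88% against 5.14% and 5.15% of all genes. Without IS replicate 1 the number lower was 1. At an unadjusted p under 0.05 with no limit on the fold change there were 8 of the 34, against 16.3% of all genes, and in DESeq2 2 had an adjusted p under 0.05. Chka, choline kinase and the first step from choline to phosphatidylcholine, had 25.4, 29.3, 29.1 and 27.5 CPM in IS and 28, 31.8, 30.8 and 30.9 CPM in ISch (0.12 ± 0.07, adjusted p = 0.383). Pcyt1a, the rate-limiting enzyme of that pathway, differed by 0.02 ± 0.05 (adjusted p = 0.874) and Pemt, which methylates phosphatidylethanolamine, by -0.25 ± 0.15 (adjusted p = 0.441), so that overlapping groups were found for each of the 3. Of 20 cholinergic genes none met the criterion as higher and 4 as lower (20%, against 5.15% of all genes), namely Lypd6 (-0.33, adjusted p = 0.056), Ly6h (-0.23, 0.176), Chrm2 (-0.41, 0.287) and Chrna2 (-0.48, 0.289). The number lower was 7 without ISch replicate 1 and 1 without ISch replicate 3. Chat and Bhmt were too low to test.

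Methyl-group and chromatin genes follow. Of 32 one-carbon genes 3 met the criterion as higher (9.38%, against 5.14% of all genes, and 2 to 4 genes when single libraries were left out) and none as lower, with sums of 1420 to 1429 CPM in IS and 1441 to 1508 CPM in ISch that did not overlap. Of these 3 Aldh1l1, the astrocytic folate dehydrogenase, had 23.9, 21.3, 21.1 and 22.5 CPM in IS and 28.3, 28.1, 31 and 26.5 CPM in ISch (0.36 ± 0.07, adjusted p = 0.0215). The Aldh1l1 groups did not overlap, and the call was lost without IS replicate 2, 3 or 4 or ISch replicate 2 or 3 (0.0972 at most). Of 20 DNA methylation genes 2 met the criterion as higher (10%, against 5.14% of all genes), the demethylation-associated Gadd45b and Gadd45g, and Dnmt1 and Dnmt3a did not. None of 26 writers, erasers and readers of histone H3 lysine 9 methylation met the criterion in edgeR or in DESeq2. In edgeR 5.14% of all genes met it as higher and 5.15% as lower. Of the 26, 3 had an unadjusted p under 0.05 in edgeR, against 16.3% of all genes, and 1 an adjusted p under 0.05 in DESeq2. Of 26 iron genes 3 met the criterion as higher (Cybrd1, 0.64, adjusted p = 0.145, Heph, 0.52, 0.253, and Tf, 0.23, 0.189), or 11.5% against 5.14% of all genes, with 1 without IS replicate 2 and 5 without IS replicate 1. None had an adjusted p under 0.05 by either tool, and 6 of the 26 had an unadjusted p under 0.05 in edgeR, against 16.3% of all genes.

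The same supplement was compared in the female rats of iron-deficient dams, IDch against ID, which shared no library with the ISch and IS groups. There 1859 of 14680 genes (12.7%) met the criterion, 5.59% higher and 7.07% lower, and 334 had an adjusted p under 0.05 (1633 and 89 without ID replicate 2). Of the 368 genes, 364 were tested in both comparisons and 335 (92%) had the same sign, against 62.3% of all genes tested in both. Their fold changes correlated across genes with r = 0.889 (0.434 over all genes), a description over genes that are not independent replicates. The criterion was met in the same direction by 187 of the 364 and in the opposite direction by 1. Over all 14398 genes tested in both these numbers were 1418 and 404. Without ID replicate 2 the sign was the same in 334 of 366 (91.3%, against 61.4% of all genes) and r was 0.901 (0.404 over all genes). The criterion was then met in the same direction by 169 of the 366, and by 1206 of all 14428 genes tested in both. Where ISch was higher the median log2 fold change of IDch over ID was 0.257, and where lower -0.263 (0.241 and -0.261 without ID replicate 2).

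Several of the large changes were also found in IDch against ID. Dsp had 1.75, 1.88, 1.39 and 1.9 CPM in ID and 10.3, 11.2, 16.5 and 16.1 CPM in IDch (2.95, adjusted p = 4.33e-05, and 2.99, 0.000624 without ID replicate 2). Pdyn had 56.7, 63.1, 68.6 and 55.9 CPM in ID and 204, 159, 236 and 157 CPM in IDch (1.62, adjusted p = 0.000175, and 1.64, 0.00222). Nqo2 had 6.37, 5.96, 6.93 and 7.43 CPM in ID and 1.49, 2.15, 2.95 and 1.48 CPM in IDch (-1.73, adjusted p = 0.00298, and -1.78, 0.0112). For these 3 genes each female group with choline was separated from each without it. Others split within IDch: Sncg had 40.7, 72.4 and 79.7 CPM in IDch replicates 1 to 3 but 7.08 CPM in replicate 4, and Brms1 had 0.136 to 0.422 CPM in replicates 1 to 3 but 5.07 CPM in replicate 4. For Sncg and Brms1 the rats of this single group thus stood at the levels of both ISch and IS.

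**Figure D3:**
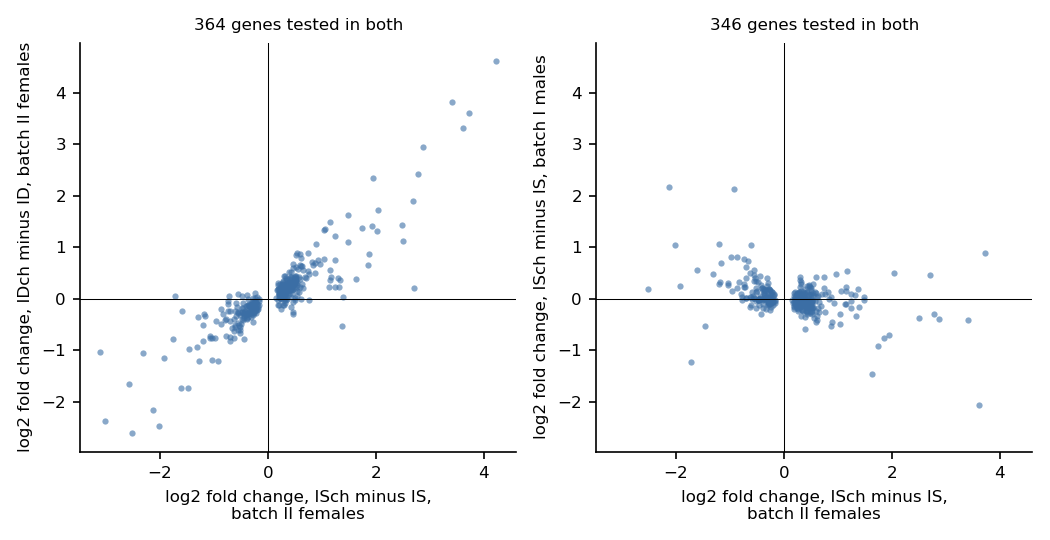
Log2 fold change of the genes with an adjusted p under 0.05 in ISch minus IS of batch II (x axis) against their log2 fold change in other rats (y axis), IDch minus ID of batch II on the left (364 genes) and ISch minus IS of batch I on the right (346 genes), 1 point per gene. The sign is shared by 92% of genes on the left and by 36.1% on the right.

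For the early genes the median effect in the formerly iron-deficient rats lay nearer 0. Their median log2 fold change in IDch over ID was -0.0165 (-0.0646 without ID replicate 2), with 1 higher and 5 lower at the criterion (2 and 4 without it), against 0.22 in ISch over IS. Egr2 had 3.54, 3.33, 2.51 and 5.66 CPM in ID and 2.89, 4.45, 3.99 and 6.51 CPM in IDch, which overlapped widely (0.22, adjusted p = 0.718, and 0.17, 0.843 without ID replicate 2). Egr1, higher in ISch than in IS, was lower in IDch than in ID (-0.29, adjusted p = 0.227, and -0.29, 0.373 without ID replicate 2). Bdnf was higher in IDch than in ID (0.22, adjusted p = 0.228, and 0.17, 0.449 without ID replicate 2). The difference between the effects of choline was tested directly in a fit of the 4 female groups. It was 1.10 for Egr2 (adjusted p = 0.346), 0.75 for Egr1 (adjusted p = 0.141) and 0.42 for Bdnf (adjusted p = 0.346), none of which passed adjustment. Without ID replicate 2 it was 1.15 for Egr2 (adjusted p = 0.396), 0.75 for Egr1 (0.251) and 0.47 for Bdnf (0.318). For 11 of the 41 early genes the difference had an unadjusted p under 0.05, against 1375 of 14975 genes tested (9.18%). All 11 were in the direction of a more positive effect in iron-sufficient rats. Without ID replicate 2 these were 13 of the 41, again all in that direction, against 8.16% of all genes. The ISch and IS libraries in which early genes were higher also enter this difference, so its direction was not an independent result. Over all genes 1 (0.00668%), an entry without a gene symbol, had an adjusted p under 0.05 for this difference, and none did without ID replicate 2, while DESeq2 called 57. The dentate markers had a median of 0.27 in IDch over ID (0.242 without ID replicate 2), with sums of 444.2 to 490.9 CPM in ID and 529.9 to 644.7 CPM in IDch, and in edgeR none of the 8 had an unadjusted p under 0.05 for the difference. The ID range of these sums and the count of 0 were unchanged without ID replicate 2.

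ISch was also compared with IS in the males of batch I, again with no shared library. There the criterion was met by 1125 of 13956 genes (8.06%), and 29 passed adjustment. Of the 346 of the 368 genes tested there, 125 (36.1%) had the same sign, against 45.5% of all genes tested in both. Of the 346, 11 met the criterion in the same direction and 40 in the opposite one. Over all 13498 genes tested in both these numbers were 379 and 683. The difference between the effects in batch II and batch I had an adjusted p under 0.05 for 194 of 15141 genes (1.28%), which included 113 of the 368. The 368 were chosen on batch II libraries that also enter this difference, so a share above 1.28% follows in part from the choice. Male libraries were shallower, at 3515806 to 9517503 counts, and, as sex and batch are the same split, which of these goes with the difference cannot be told apart.

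In the males Pdyn had 99.9, 85.4, 43.5 and 44.4 CPM in IS and 58.7, 98.8, 73 and 52.8 CPM in ISch, wide ranges that lay over each other (0.04), and the difference of the effects was 1.45 (adjusted p = 0.0376). Dsp had 8.01, 5.05, 7.32 and 7.19 CPM in male IS and 1.54, 1.04, 7.1 and 11 CPM in male ISch, a difference of effects of 3.26 (adjusted p = 0.0112). Sncg had 32.8, 3.22, 3.51 and 22.4 CPM in male IS and 3.68, 4.17, 56.3 and 52.7 CPM in male ISch. Dsp and Sncg therefore had both low and high rats within a single diet group of the males, at levels that separated the groups in the females. For Bdnf, with -0.25 in males, the difference was 0.89 (adjusted p = 0.0159), and for C1ql2, with -0.23 in males, 0.74 (adjusted p = 0.00698). As a list the dentate markers had a median log2 fold change of -0.142 in the males, with 0 higher and 2 lower at the criterion. The early genes had a median of 0.037, with 1 higher and 2 lower. Of all genes 8.06% met the criterion there in either direction. The difference of effects had an adjusted p under 0.05 for 3 dentate markers and 1 early gene, against 1.28% of all genes. Slc29a4, a transporter of monoamines at plasma membranes, had 14, 15.8, 18.9 and 16 CPM in female IS and 24.5, 31, 30 and 33.6 CPM in female ISch (0.88 ± 0.11, adjusted p = 0.00364). It differed by -0.52 in the males, so that the difference of effects was 1.39 (adjusted p = 0.00105).

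The 65 genes with an adjusted p under 0.05 and an absolute log2 fold change above 1 were followed through all 32 libraries. For each gene the midpoint between the IS and ISch means of batch II was taken, and each library was placed on the IS side or the ISch side. By the choice of genes 96.5% of the ISch and 0.385% of the IS values lay on the ISch side, which is no finding. In the female groups that the choice did not use, 14.6% of the 260 ID values (14.4% of 195 without ID replicate 2) and 72.3% of the 260 IDch values did so. In the male groups the shares were 56.5% in IS, 40.8% in ISch, 55.8% in ID and 53.5% in IDch, and for 50 of the 65 genes at least 1 male group had rats on both sides. The plot of levels in all 8 groups shows this for single genes.

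**Figure D4:**
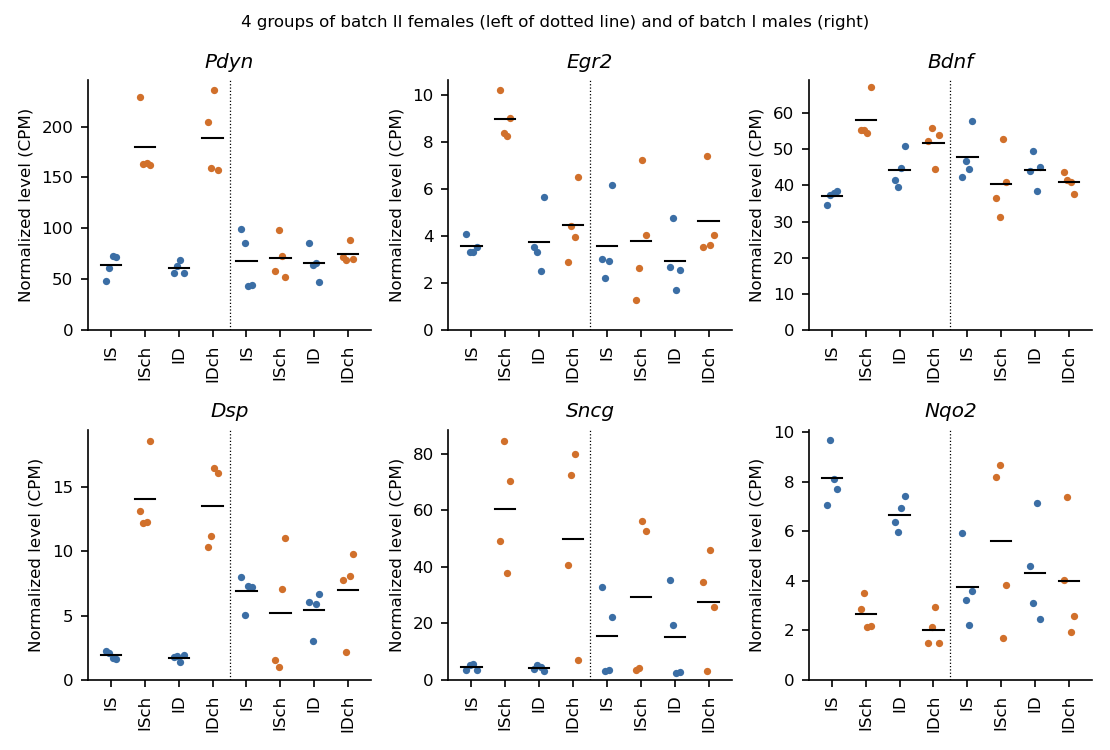
Level (y axis, CPM) of Pdyn, Egr2, Bdnf, Dsp, Sncg and Nqo2 in each of the 32 libraries by diet group (x axis), batch II females left and batch I males right of the dotted line, with 1 point per library and a bar at each group's mean. For Dsp the batch II groups with choline lie between 10.3 and 18.6 CPM and those without it between 1.39 and 2.28 CPM, while male ISch rats range from 1.04 to 11 CPM.

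Markers of cell types outside the neuronal fields were examined as a check on the tissue. Of 12 microglial markers none met the criterion as higher and 3 as lower (25%, against 5.15% of all genes), P2ry12 (-0.41 ± 0.11, adjusted p = 0.094), Cx3cr1 (-0.23, 0.121) and C1qc (-0.25, 0.264), with sums of 496.5 to 528 CPM in IS and 435.4 to 486.6 CPM in ISch that did not overlap. Between 1 and 5 microglial markers were lower when single libraries were left out, 1 without ISch replicate 2 and 5 without ISch replicate 1. Of 7 haemoglobin and other blood genes 3 met the criterion as higher (42.9%, against 5.14% of all genes), none without IS replicate 2, and their sums of 181.9 to 318.7 CPM in IS and 253.2 to 384.6 CPM in ISch overlapped. None of 8 choroid plexus markers, 15 oligodendrocyte markers or 11 interneuron markers met the criterion in edgeR or DESeq2. In edgeR 0, 1 and 1 of them had an unadjusted p under 0.05, against 16.3% of all genes. Without ISch replicate 1, however, 3 interneuron markers were lower and 1 was higher, and 3 oligodendrocyte markers were higher. Of 10 markers of meninges and fibroblasts 3 met the criterion as higher (30%, against 5.14% of all genes), Mgp (0.33), Slc6a13 (0.43) and Igf2 (0.31). Lum was the 1 that met it as lower (-1.06, adjusted p = 0.0601; 10%, against 5.15%). Sums of these markers were 222.6 to 257.7 CPM in IS and 223.6 to 274.2 CPM in ISch. Of 6 ependymal markers 1, Ccdc153 (-0.41, adjusted p = 0.273), met the criterion as lower (16.7%, against 5.15% of all genes). That number was 0 without IS replicate 3 and 3 without ISch replicate 3. The median log2 fold change of the ependymal markers was -0.42, and their sums were 16.6 to 19.8 CPM in IS and 10.5 to 18.7 CPM in ISch. Both pairs of sums overlapped. What part a different share of these cells had in the results above was not tested.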

How the data were processed

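Hippocampal RNA of 32 rats was sequenced from TruSeq RNA v2 libraries. The authors trimmed reads with Trimmomatic, aligned them to Rnor 6.0 with HISAT2 and counted reads per gene with featureCounts, per the labels and the study's methods, and deposited the raw counts as 1 table per batch. Whether counting used strand was not given in the sources used here. The members, gene lists and tests were chosen with earlier results of these data known.

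From the deposited counts, the 8 libraries of the comparison were fitted with edgeR 4.0.16 (R 4.3.3, limma 3.58.1; filterByExpr, TMM normalization, quasi-likelihood test, Benjamini-Hochberg adjustment over all genes tested). Fold changes came from this fit, and levels were CPM with TMM factors over all 32 libraries. Calls used the criterion of the study's methods (absolute log2 fold change above 0.2, p under 0.05) or an adjusted p under 0.05. Genes were named by a rule: the 12 higher and 12 lower of largest fold change whose entry has a symbol, whose groups do not overlap and whose adjusted p is under 0.05, the 3 of smallest p in each list, the genes the study named, a set of choline and early genes, and the 6 of smallest p in each difference test. Some genes covered by this rule are not reported here. Other members of a list were named after their values were seen. Entries named by clone or locus number were treated as having no symbol. Differences between effects were interaction terms in fits of both comparisons. Alternatives were DESeq2 1.42.0, other scalings and filters, a replicate block and leaving out each library, and, chosen after seeing the data, thinned counts and leaving out ID replicate 2. Scripts were tested on simulated data. Promoter sequences came from RefSeq (GRCr8), whose coordinates are not those of the counts. Figures were drawn with Python 3.11.15 and matplotlib 3.10.9. Replicates 1 to 4 of a diet were numbered in the labels. Deviations of same-numbered libraries correlated at -0.148 to -0.0205, which gave no sign that the numbers pair the rats but cannot exclude it. The labels do not say whether they do.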

Additional observations from a re-analysis of the deposited data

Results flagged for a closer look

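In 9 of the 102 sets of 4 values examined, 1 library lay far from the other 3 of its group, where chance gives about 1 in 20. In ISch these were Bdnf at 67.3 CPM in replicate 4 (others 54.6 to 55.4), Dsp at 18.6 CPM in replicate 4 (12.2 to 13.1), Ccn1 at 3.16 CPM (0.503 to 0.668) and App at 1810 CPM (1920 to 1940) in replicate 3, Ptges at 2.84 CPM in replicate 2 (1.09 to 1.21), and Tnks at 103 CPM (75.9 to 79.1) in replicate 1. In IS all 3 were in replicate 3, with Fos at 24.3 CPM (9.28 to 11.5), Slc9a4 at 62.9 CPM (73 to 74.8) and Slc9b1 at 4.38 CPM (5.25 to 5.41).

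For 20 named genes the effect of choline in the females of batch II minus that in the males of batch I had an adjusted p under 0.05 by edgeR's interaction term. On the log2 scale the difference was 0.889 for Bdnf, 4.62 for Brms1, 3.26 for Dsp, 1.52 for Giot1, 0.55 for Mt-nd2, 5.67 for Otop3, 3.07 for Pcdhga1, 2.62 for Plac9, 1.53 for Pld5, 1.29 for Serhl2, 1.39 for Slc29a4 and 2.66 for Smoc2. It was negative for Bmp3 (-1.41), Il1rl2 (-5.98), Lrrc31 (-3.07), Nqo2 (-2.17), Rgs22 (-1.85), RT1-Bb (-3.36), Slc9a4 (-0.795) and Slc9b1 (-4.31). In Bmp3 the females gave -0.45 (adjusted p = 0.384) and the males 0.96. Most of the 20 genes were named for their change in batch II or for this difference itself, so their number was set in part by that choice.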

How the results depend on the processing

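The number of genes at the study's criterion was 1278 to 2042 when single libraries were left out and 2362 with no limit on the fold change. The number with an adjusted p under 0.05 was 678 in DESeq2 and 103 to 796 when single libraries were left out. The difference between batches was called for 447 genes in DESeq2 and for 88 to 454 with single libraries left out. The difference between iron-sufficient and formerly iron-deficient rats was called for 57 genes in DESeq2 and 0 to 5 with single libraries left out, ID replicate 2 among them (0). With the replicate number as a block, although there was no sign that the numbers pair the rats, 82 genes had an adjusted p under 0.05 (52 higher and 30 lower, 76 of them among the 368). In such fits 72 differed between batches and 0 between iron groups.

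Of 61 named genes with an adjusted p under 0.05, 20 kept it under all alternatives and 41 lost it under at least 1, with direction kept in all 61. The 7 genes that changed sign were not called. Dnmt3a became 0.0029 with RLE factors, 0.00092 with library size alone, 0.0030 in DESeq2, 0.0015 in a fit of 4 groups and 0.0049 thinned, and Fos 0.070 with the replicate block. With single libraries left out the values ran from -0.071 to 0.082 for Dnmt3a, -0.18 to 0.38 for Fos, -0.031 to 0.0050 for App, -0.056 to 0.016 for Dnmt1, -0.065 to 0.090 for Ireb2, -0.027 to 0.056 for Htt and -0.14 to 0.034 for Tnks. Depth limits the genes near 0.2 CPM, where a library holds only a few counts.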

Other observations

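Ribosomal protein and heat shock genes are lists not yet described. Of 81 ribosomal protein genes 5 met the criterion as higher (6.17%, against 5.14% of all genes) and 3 as lower (3.7%, against 5.15%). Rpl12, a protein of the large subunit, had 85.9, 77.4, 90 and 82.9 CPM in IS and 116, 122, 121 and 128 CPM in ISch. The groups were well apart (log2 fold change 0.53 ± 0.05, edgeR adjusted p = 0.000819), and the call passed under all alternatives, but ribosomal protein genes have many processed copies, so the value is uncertain. Of 28 heat shock genes 3 met the criterion as higher, Dnajb5 (0.29, adjusted p = 0.024), Bag3 (0.37, 0.122) and Dnajb1 (0.26, 0.0855), and none as lower. That was 10.7%, against 5.14% of all genes. The sign was positive in 24 of the 28, with a median of 0.0734. ISch and IS values did not overlap in 10 of the 28, a larger share than the 10.2% of all genes. The sums were 7367 to 7487 CPM in IS and 7779 to 7811 CPM in ISch. The call of Dnajb5 was lost without any 1 IS library or without ISch replicate 2 or 4, and with the replicate block (adjusted p at most 0.101). Of 76 nuclear genes of the respiratory chain none met the criterion as higher, against 5.14% of all genes. Ndufa12 (-0.52) was the 1 that met it as lower (1.32%, against 5.15%). In edgeR 4 of the 76 had an unadjusted p under 0.05, against 16.3% of all genes, and in DESeq2 2 had an adjusted p under 0.05.

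In the gene order of GRCr8, 99 of the 327 placed genes with an adjusted p under 0.05 (30.3%) had another such gene among the 5 tested genes on either side, against 2663 of 12389 other tested genes (21.5%). Of 43 runs so formed, 19 held both directions. One joined Chchd5 (0.51), Slc20a1 (0.22), Pdyn (1.49), Nop56 (-0.27) and Idh3b (-0.17), another Tubb2b (-0.33), Bphl (0.89), Serpinb6a (-0.50) and Nqo2 (-1.61), and another Il1rl2 (-2.32), Slc9a4 (-0.47) and Slc9a2 (-0.42). These are descriptions with no test.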
